A study of Mus musculus with 3 samples.

Results

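The enamel matrix proteases Mmp20 and Klk4, the phosphatase gene Acp4, the Golgi kinase genes Fam20a and Fam20c, and Fam83h were examined in the incisor enamel organ of Stim1 conditional knockout mice. These 6 genes were taken by symbol from a table of raw counts of 20937 genes, and all 6 passed the filter on low counts that left 18702 genes for testing. RNAseq had been done on whole incisor enamel organs of mice aged 4 weeks, with 1 library for each of 3 genotypes. Stim1 cKO was AmelX-iCre positive with both Stim1 alleles floxed (Stim1 fl/fl Cre+), Stim1 HT was AmelX-iCre positive with 1 floxed allele (Stim1 fl/wt Cre+), and Stim1 Ctrl carried 2 floxed alleles without Cre (Stim1 fl/fl Cre-). They are named cKO, HT and Ctrl from here on. The transgene drives Cre from amelogenin regulatory sequence, so recombination is directed to ameloblasts from the secretory stage onwards, and the other cells of the dissected tissue keep Stim1. No genotype had a replicate library, so mouse-to-mouse spread within a genotype is unknown. The study used HT and Ctrl together as controls.

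Enamel is laid down as a protein matrix by secretory ameloblasts and then hardened by maturation ameloblasts, which remove the matrix while mineral is added. MMP20 (enamelysin) is a metalloprotease of the secretory stage that trims amelogenin, ameloblastin and enamelin, and KLK4 is a serine protease that degrades what remains during maturation. ACP4 is a membrane-bound acid phosphatase first described in testis. FAM20C is the Golgi kinase that phosphorylates secreted proteins, including those of enamel, dentin and bone, and FAM20A is a pseudokinase that binds FAM20C and raises its activity. FAM83H is an intracellular scaffold that binds casein kinase 1 and keratins. Mutations in MMP20, KLK4, ACP4, FAM20A and FAM83H cause inherited enamel defects in people.

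The promoters of the proteases and of Fam20c are shown because they differ in base composition. Each line is the 60 bases before the RefSeq gene start on GRCm38.p6, read 5′ to 3′ on the strand of the gene, and capitals mark TATAAA or TATAAG on either strand. Klk4 is shown from chr7:43881100-43881159 and Mmp20 from chr9:7628171-7628230, both on the plus strand. Fam20c is shown from chr5:138755021-138755080, also on the plus strand.
Mmp20: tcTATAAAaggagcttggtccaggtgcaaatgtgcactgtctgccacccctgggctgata
Klk4: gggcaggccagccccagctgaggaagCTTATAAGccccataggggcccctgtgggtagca
Fam20c: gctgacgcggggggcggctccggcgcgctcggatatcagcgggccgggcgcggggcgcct

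The motif began 58 bases before the start in Mmp20 and 34 bases before it in Klk4, where the capitals hold it on both strands, overlapping. Within this window it was present in 5.71% of 32851 mouse promoters, and its presence is a description of the sequence and not of a factor. Acp4, Fam20a and Fam20c did not hold these letters within 60 bases of the start, nor within 250. The 250 bases before the start were 81.2% G or C with 41 CpG in Fam20c, and 61.2% with 10 CpG in Fam20a. Those of Mmp20 were 45.6% G or C with 0 CpG, against a median of 52.4% and 6 CpG over all promoters. Klk4 (59.6%, 1 CpG) and Acp4 (56.0%, 4 CpG) lay between. The table of promoters gave an entry for 5 of the 6 genes, the exception being Fam83h. Both Klk4 and Acp4 lie on chromosome 7, Klk4 from 43881160 to 43885804 and Acp4 from 44252148 to 44257378 (GENCODE M21, GRCm38). Mmp20 lies on chromosome 9 from 7628231 to 7674979, Fam20a on chromosome 11 from 109669749 to 109722279, Fam20c on chromosome 5 from 138754514 to 138810077, and Fam83h on chromosome 15 from 76001093 to 76014336. Klk4, Mmp20 and Fam20c lie on the plus strand and Acp4, Fam20a and Fam83h on the minus strand. The RefSeq starts of Fam20c (138755081), Acp4 (44257204) and Fam20a (109722238) lie inside the GENCODE genes, so their promoter windows are those of the RefSeq starts only.

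The libraries held between 20216507 and 28265960 counts. Expression levels are given in CPM, which scales counts to library size, here with TMM factors, and the detection limit of 3 counts corresponds to at most 0.152 CPM. Intervals in the text are 95% intervals that cover counting error within a library only. Stim1, the targeted gene, was at 72.8 CPM in cKO, 129 CPM in HT and 186 CPM in Ctrl, a log2 fold change of -1.11 that did not pass the test (edgeR adjusted p 0.106). The tissue was checked with marker lists. The 9 markers of enamel organ epithelium, such as Krt5, Krt14 and Krt17, were all listed. They summed to 3706 CPM in cKO, 2608 CPM in HT and 2610 CPM in Ctrl. In cKO 6 of them were above both controls, 1 (Krt17) was below both and 2 lay between. The higher sum in cKO came mostly from Krt5 (1310, 893 and 949 CPM in cKO, HT and Ctrl) and Krt14 (1192, 573 and 464 CPM). Markers of cells outside the enamel organ also differed. The 4 listed genes of a retina and lens list of 10 summed to 947 CPM in cKO against 5.74 and 4.51 CPM in HT and Ctrl, while Pde6b, Crygd, Crygb, Cryba1, Crybb2 and Rpe65 were not listed. The 6 neuron markers summed to 829, 193 and 128 CPM, the 8 skeletal muscle markers to 4960, 17936 and 21846 CPM, the 7 fibroblast markers to 4256, 9530 and 14137 CPM, and the 6 leukocyte markers to 105, 215 and 163 CPM, in the same order. The part of these cells in the values below was not tested.

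cKO was compared with the 2 controls by the quasi-likelihood test of edgeR, with p-values adjusted by Benjamini-Hochberg over all 18702 genes, and calling required an adjusted p under 0.01 with more than a 2-fold difference. The residual spread in this test comes from HT against Ctrl alone, 2 libraries of unlike genotype. Of the 6 genes, 0 were called, where 0.0749% of all genes tested were called. Fam20c, 1 of the 6, had an unadjusted p under 0.05, against 31.9% of all genes. With DESeq2 the call was made for 1 of the 6, again Fam20c, against 10.6% of all genes, split into 4.71% lower and 5.92% higher. On the TMM scale the level in cKO lay below both controls in 4 of the 6 genes, Mmp20, Acp4, Fam20a and Fam20c, and above both in Fam83h, and these positions were held by 42.1% and 43.6% of all genes. The median log2 fold change of the 6 genes was -0.34 and the median of its absolute value 0.41, against -0.01 and 0.66 over all genes tested. In bulk RNA, fewer cells of a type and less RNA per cell cannot be told apart.

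**Figure D1:**
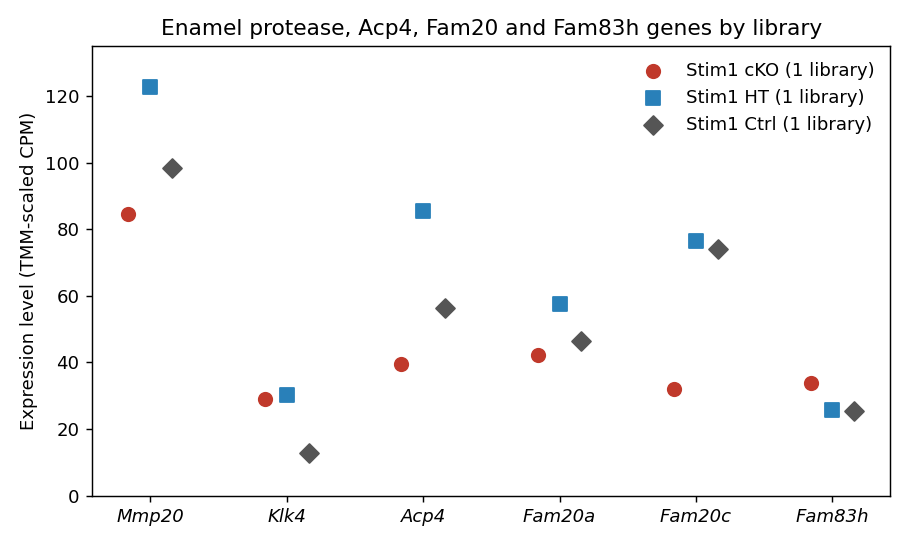
Expression level in TMM-scaled CPM (vertical axis, linear from 0) of the 6 genes in the cKO, HT and Ctrl libraries, with 1 point per library and no error, since there was 1 library per genotype. Fam20c is at 31.9 CPM in cKO with both controls between 74.1 and 76.4 CPM, while Klk4 in cKO lies next to HT and above Ctrl.

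On the TMM scale Mmp20 was slightly lower in cKO than in both controls. It had 2044 counts in cKO, 2415 in HT and 2533 in Ctrl, or 84.4, 123 and 98.4 CPM. The level in cKO was the lowest, and the gap between the controls was larger than that between cKO and Ctrl. The log2 ratio of cKO was -0.54 to HT (-0.62 to -0.45) and -0.22 to Ctrl (-0.31 to -0.14), while that of HT to Ctrl was 0.32 (0.24 to 0.40). The log2 fold change against the grouped controls was -0.39 (edgeR adjusted p 0.391). With scaling by library size alone, Mmp20 in cKO lay above Ctrl and below HT.

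Klk4, the protease of the maturation stage, did not separate cKO from the controls. It had 701 counts in cKO, 594 in HT and 328 in Ctrl, or 29.0, 30.2 and 12.7 CPM. The libraries with Cre lay together and above the library without Cre. The log2 ratio was -0.06 between cKO and HT (-0.22 to 0.10), an interval that includes 0, and 1.18 between cKO and Ctrl (0.99 to 1.37). Between HT and Ctrl it was 1.24 (1.05 to 1.44), and Klk4 was the one gene of the 6 in which the controls differed more than 2-fold, as did 13.5% of all genes tested. On the log2 scale the difference from the grouped controls was 0.44 (edgeR adjusted p 0.596), and it depended on which control was used. It was 1.17 without HT and turned to -0.06 without Ctrl, and to -0.07 when counts were scaled to the enamel organ epithelium markers.

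The 13 markers of maturation-stage ameloblasts lay on either side of the controls. Of these, 7 were above both controls in cKO and 5 were below both. The summed level of the 13 was 1225 CPM in cKO, 872 CPM in HT and 668 CPM in Ctrl. Odam alone was at 694 CPM in cKO, 196.5 CPM in HT and 75.1 CPM in Ctrl, and without it the sum was not highest in cKO. Odaph, which encodes a secreted phosphoprotein of maturation ameloblasts, had 610 counts in cKO, 36 in HT and 11 in Ctrl, with a log2 fold change of 4.50 (edgeR adjusted p 0.0375). HT was above Ctrl in Odaph by 2.10 on the log2 scale, in Odam by 1.39 and in Amtn by 1.00, and in Klk4 by 1.24. Ctsc, whose product cathepsin C can activate KLK4, was at 41.4 CPM in cKO, 70.8 CPM in HT and 72.2 CPM in Ctrl (edgeR adjusted p 0.107). DESeq2 called 2 of the 13 markers, Odam and Odaph, both higher, against 5.92% of all genes called as higher. The 3 secretory-stage markers Amelx, Ambn and Enam were below both controls, and summed to 3500 CPM in cKO, 31050 CPM in HT and 23014 CPM in Ctrl. The part of a shift in ameloblast stage in the level of Klk4 was not tested.

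Acp4 was lower in cKO, by an amount that differed between the controls. It had 959 counts in cKO, 1682 in HT and 1447 in Ctrl, or 39.6, 85.4 and 56.2 CPM. cKO was the lowest of the 3 libraries and HT the highest. The log2 ratio of cKO was -1.11 to HT (-1.22 to -0.99) and -0.51 to Ctrl (-0.62 to -0.39), and that of HT to Ctrl was 0.60 (0.50 to 0.70). The log2 fold change of Acp4 was -0.84 (edgeR adjusted p 0.170), and it was -0.52 without HT and -1.11 without Ctrl. The exons of Acp4 share 172 bases with 2410002F23Rik on the opposite strand, and whether reads were counted by strand is not given in the sources used here, so reads of that stretch are uncertain. That gene had 1616 counts in cKO, 1011 in HT and 1209 in Ctrl, highest where Acp4 was lowest. Of 8 germ cell markers, only Ddx4 and Dazl were listed, and they had at most 10 counts in any library. Prm1, Prm2, Tnp1, Tnp2, Acrv1 and Odf1 were not listed, so their levels are unknown.

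On the TMM scale Fam20a, the pseudokinase gene, was lower in cKO by little. It had 1024 counts in cKO, 1131 in HT and 1191 in Ctrl, or 42.3, 57.4 and 46.3 CPM. Its log2 ratio to Ctrl was -0.13 (-0.25 to -0.01) and to HT -0.44 (-0.56 to -0.32). The controls differed by 0.31 (0.19 to 0.43), which exceeded the gap between cKO and Ctrl. Against the grouped controls its log2 fold change was -0.29 (edgeR adjusted p 0.479), and it was -0.04 with scaling by library size alone. The order of cKO and Ctrl depended on the scale. With library size alone or upper-quartile factors cKO lay above Ctrl. In TPM, described below and without TMM factors, Fam20a was at 38.9 in cKO, 44.1 in HT and 38.0 in Ctrl.

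Fam20c was the gene of the 6 with the largest difference under edgeR and DESeq2, and the controls agreed within counting error. It had 772 counts in cKO, 1505 in HT and 1906 in Ctrl, or 31.9, 76.4 and 74.1 CPM. The log2 ratio of cKO was -1.26 to HT (-1.39 to -1.14) and -1.22 to Ctrl (-1.34 to -1.10), and that of HT to Ctrl was 0.04 (-0.05 to 0.14). Fam20c was thus more than 2-fold below both controls, as were 8.23% of all genes tested, and 0 of the 6 were more than 2-fold above both, against 19.1%. The log2 fold change was -1.24, a level 2.36-fold lower (edgeR adjusted p 0.0474), which did not pass the threshold of 0.01. At an adjusted p under 0.05 edgeR called Fam20c and 9.68% of all genes. DESeq2 called it, with the same log2 estimate of -1.24 (standard error 0.348) and an adjusted p of 0.00379. Over the alternatives the adjusted p ranged from 0.00379 to 0.0715.

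Fam20c is also active in odontoblasts and bone cells, whose markers were measured in the same libraries. Of 12 odontoblast and bone markers, 9 were below both controls in cKO, 1 was above both and 2 lay between, and they summed to 34006 CPM in cKO, 43779 CPM in HT and 67064 CPM in Ctrl. DESeq2 called 5 of them as lower, namely Dmp1, Sp7, Mepe, Spp1 and Sost, against 4.71% of all genes. Sp7, a transcription factor of osteoblasts, was at 42.6, 107 and 106 CPM (log2 fold change -1.32, edgeR adjusted p 0.0454). Dspp, the main phosphoprotein gene of odontoblasts, was at 1264 CPM in cKO and 792 CPM in each control, with a log2 fold change of 0.67 (edgeR adjusted p 0.232). For 100 counts of Col1a1, which encodes a chain of type I collagen, there were 0.151 counts of Fam20c in cKO (0.141 to 0.162, Wilson), 0.338 in HT (0.321 to 0.355) and 0.199 in Ctrl (0.190 to 0.208). The part of bone and dentin cells in the level of Fam20c was not tested.

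Fam83h was above both controls by a small amount. It had 816 counts in cKO, 509 in HT and 655 in Ctrl, or 33.7, 25.8 and 25.4 CPM. The controls were level, with a log2 ratio of 0.02 (-0.15 to 0.19), while cKO differed from HT by 0.38 (0.22 to 0.54) and from Ctrl by 0.41 (0.26 to 0.55). Against both controls the estimate was 0.39 on the log2 scale (edgeR adjusted p 0.305), and it turned to -0.11 when counts were scaled to the epithelium markers. Under the epithelium scaling the median over all genes was -0.52, and Fam83h and Klk4 both lay above it.

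**Figure D2:**
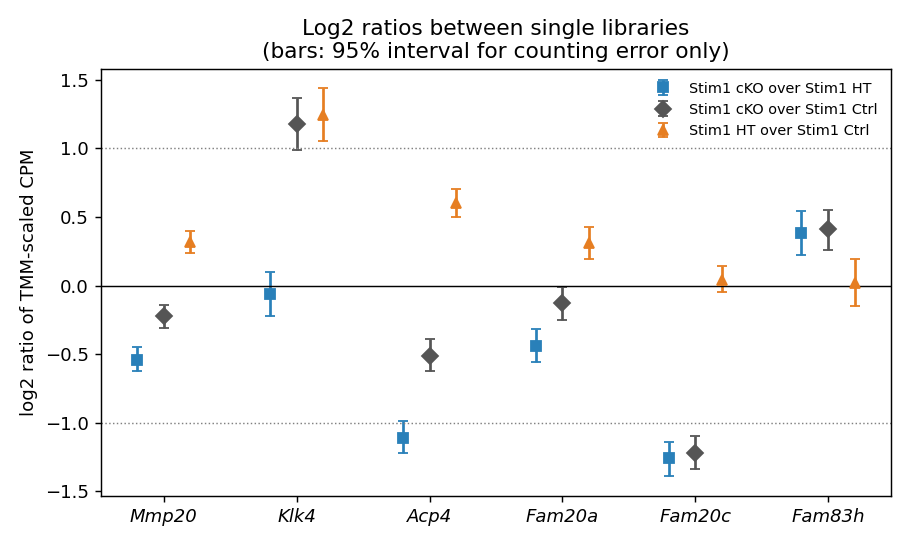
Log2 ratio of TMM-scaled CPM between single libraries (vertical axis) for the 6 genes, with squares for cKO over HT, diamonds for cKO over Ctrl and triangles for HT over Ctrl. Bars are 95% intervals for counting error only, dotted lines mark 2-fold, and Fam20c is the gene in which both ratios of cKO lie below -1 with the controls level.

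Levels were compared between the 6 genes after division by merged exon length, as TPM, which scales the length-corrected counts to their sum in a library. In cKO, Mmp20 was at 85.9 TPM, Klk4 at 77.5 TPM, Acp4 at 75.7 TPM, Fam20a at 38.9 TPM, Fam83h at 24.4 TPM and Fam20c at 16.2 TPM. In HT the order was Acp4 (136 TPM), Mmp20 (104 TPM), Klk4 (67.4 TPM), Fam20a (44.1 TPM), Fam20c (32.4 TPM) and Fam83h (15.6 TPM). In Ctrl it was Acp4 (95.8 TPM), Mmp20 (89.2 TPM), Fam20a (38.0 TPM), Fam20c (33.5 TPM), Klk4 (30.4 TPM) and Fam83h (16.4 TPM). Neighbours in these orders that did not differ beyond counting error were Klk4 and Acp4 in cKO, with a ratio of 1.02 (0.929 to 1.13), and Fam20c and Klk4 in Ctrl, with a ratio of 1.10 (0.980 to 1.24). Mouse-to-mouse spread is unknown for each of them. With the length of the longest transcript in place of merged exons, Fam83h was the lowest in all 3 libraries, and Acp4 and Mmp20 were the 2 highest in all 3. In cKO that order was within counting error at the top, with a ratio of 1.06 (0.981 to 1.14) for Mmp20 over Acp4 and 1.05 (0.949 to 1.15) for Acp4 over Klk4. Klk4 took place 2 or 3 in the libraries with Cre and place 5 in Ctrl, under both lengths.

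The ratio of 2 genes within a library does not depend on how libraries are scaled to each other. For 100 counts of Mmp20 there were 34.3 counts of Klk4 in cKO (31.5 to 37.4, Wilson), 24.6 in HT (22.5 to 26.9) and 12.9 in Ctrl (11.5 to 14.5). The ratio of the late to the early protease was thus highest in cKO, at 1.39 times that of HT and 2.65 times that of Ctrl, but the controls themselves differed by 1.90 times. For 100 counts of Amelx, which encodes amelogenin, the substrate of both proteases, there were 4.09 counts of Mmp20 in cKO (3.91 to 4.27), 0.613 in HT (0.589 to 0.637) and 0.699 in Ctrl (0.672 to 0.727). This ratio of Mmp20 to Amelx was 6.68 times that of HT and 5.85 times that of Ctrl, against 0.877 between the controls. The ratio of Klk4 to Amelx was 9.31 times that of HT and 15.5 times that of Ctrl, and that of Acp4 to Amelx 4.50 and 4.81 times. Amelx itself was 8.26-fold lower in cKO, with a log2 fold change of -3.05 (edgeR adjusted p 0.0445), which did not pass the threshold.

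The balance of the pseudokinase gene Fam20a to the kinase gene Fam20c was also highest in cKO. For 100 counts of Fam20c there were 133 counts of Fam20a in cKO (121 to 146, Wilson), 75.1 in HT (69.6 to 81.2) and 62.5 in Ctrl (58.1 to 67.2). The ratio in cKO was 1.76 times that of HT and 2.12 times that of Ctrl, and the controls differed by 1.20 times. Divided by merged exon length, Fam20a was above Fam20c in each of the 3 libraries, at 2.41 in cKO, 1.36 in HT and 1.13 in Ctrl. The order in the controls depended on the length used. With the longest transcript, Fam20c was above Fam20a in HT, by 1.09 times (1.01 to 1.18), and in Ctrl, by 1.31 times (1.22 to 1.41). Fam20a stayed above Fam20c in cKO, by 1.62 times (1.47 to 1.78).

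**Figure D3:**
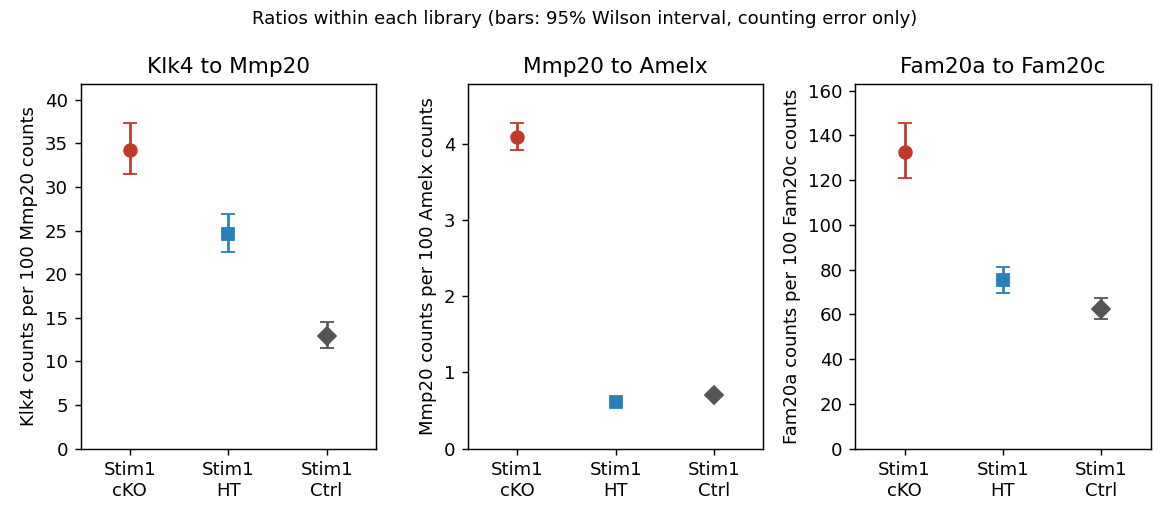
Counts of Klk4 per 100 counts of Mmp20, of Mmp20 per 100 counts of Amelx and of Fam20a per 100 counts of Fam20c (vertical axes, linear from 0) in the 3 libraries, 1 point per library, with 95% Wilson intervals for counting error only. Each ratio is highest in cKO, and for Klk4 to Mmp20 the controls also lie apart, at 24.6 and 12.9.

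The profiles of the 6 genes over the 3 libraries were compared as the Euclidean distance between log2(CPM + 1) values centred on their mean. Mmp20 and Fam20a were the nearest pair, at a distance of 0.0789, and Klk4 and Fam20c the farthest, at 1.64. Among the 14977 genes averaging 50 counts or more, those nearest to Fam20c were Mdh2, which encodes mitochondrial malate dehydrogenase, at 0.00664, and Smim1 at 0.0131. Those nearest to Klk4 were Gm9843 at 0.0429 and Psmb8, an immunoproteasome subunit gene, at 0.0487. Those nearest to Acp4 were Folr1, a folate receptor gene, at 0.0257 and Coa4 at 0.0281. For Mmp20 they were Gm13577 (0.0110) and Mrpl1 (0.0115), for Fam20a Bloc1s4 (0.00224) and Dbi (0.00594), and for Fam83h Slco4a1 (0.00509) and Rpl10-ps6 (0.0105). With only 3 libraries many genes share a profile. Within a distance of 0.1 there were 346 genes for Fam20a, 282 for Mmp20, 266 for Fam83h, 82 for Fam20c, 33 for Acp4 and 8 for Klk4.

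The other genes of inherited enamel defects were examined with the 6 as a list of 26. In cKO 17 of them were below both controls, 7 were above both and 2 lay between. Over all genes tested, 42.1% lay below both and 43.6% above both, and these shares also apply to the lists that follow. The median log2 fold change was -0.51. edgeR called 0 of the 26, and 13 reached an unadjusted p under 0.05, against 31.9% of all genes. DESeq2 called 7, against 10.6% of all genes. Of the 7, 6 were lower (Amelx, Enam, Ambn, Sp6, Ltbp3 and Fam20c) and 1 was higher (Odaph). Enam was at 286 CPM in cKO, 1722 CPM in HT and 1856 CPM in Ctrl, and Ambn at 1149, 9312 and 7071 CPM. Their log2 fold changes of -2.64 and -2.83 were several times that of Mmp20, whose product cleaves both proteins.

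KLK4 belongs to the tissue kallikreins, serine proteases encoded side by side on chromosome 7. Of 26 kallikrein genes, 18 were listed and 16 tested. In cKO 10 were above both controls, 1 was below both and 5, Klk4 among them, lay between, with a median log2 fold change of 0.50. edgeR called 0 of the 16, and 5 reached an unadjusted p under 0.05, against 31.9% of all genes. DESeq2 called Klk1 alone, against 10.6% of all genes. Klk1, the glandular kallikrein of salivary gland, had 2978 counts in cKO, 195 in HT and 200 in Ctrl, with a log2 fold change of 3.80 (edgeR adjusted p 0.0115). Klk1 has near-identical copies among the Klk1b genes, and reads may have been divided among them. There were 23.5 counts of Klk4 per 100 counts of Klk1 in cKO, 305 in HT and 164 in Ctrl.

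Markers of salivary and lacrimal gland were present in all 3 libraries and differed in different directions. The 11 genes of the list summed to 588 CPM in cKO, 850 CPM in HT and 79.5 CPM in Ctrl, and 4 were above both controls, 2 were below both and 4 lay between among the 10 tested. Car6 was at 232 CPM in cKO, 9.85 CPM in HT and 3.23 CPM in Ctrl, while Dcpp1 was at 91.5, 326 and 8.08 CPM. Among the other kallikreins, Klk12 was at 6.98, 1.73 and 3.34 CPM, Klk11 at 18.9, 7.72 and 11.1 CPM, and Klk14 at 23.7, 3.60 and 15.6 CPM in cKO, HT and Ctrl. In Klk12, Klk11 and Klk14, which are known from skin, HT was the lowest library, whereas in Klk4 Ctrl was. The part of gland tissue in the kallikrein levels was not tested.

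A list of 16 protease partners held genes of other proteases, of protease inhibitors and of a collagen chaperone, not all particular to enamel. Of these, 13 were below both controls in cKO and 3 above both, with a median log2 fold change of -0.53. edgeR called 0 of the 16, and 6 reached an unadjusted p under 0.05, against 31.9% of all genes. DESeq2 called 5 as lower, against 4.71% of all genes. Mmp9, a gelatinase abundant in osteoclasts, was at 89.5 CPM in cKO, 420 CPM in HT and 650 CPM in Ctrl, a log2 fold change of -2.58 (edgeR adjusted p 0.0351). Ctsk, the collagen-degrading cathepsin K of osteoclasts, was at 184 CPM against 739 and 742 CPM, a log2 fold change of -2.01 (edgeR adjusted p 0.0363). Serpinh1, a collagen chaperone gene, had a log2 fold change of -1.96, and Timp1, an inhibitor of metalloproteases, one of -1.46. Mmp2 was the fifth gene called by DESeq2.

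Of 8 acid phosphatase genes, 4 were below both controls, 3 above both and 1 between, with a median log2 fold change of -0.42. edgeR called 0 of the 8, and 4 reached an unadjusted p under 0.05, against 31.9% of all genes. DESeq2 called Acp5 alone, against 10.6% of all genes. Acp5, the tartrate-resistant acid phosphatase of osteoclasts, was at 86.5 CPM in cKO, 440 CPM in HT and 446 CPM in Ctrl, with a log2 fold change of -2.36 (edgeR adjusted p 0.0258). Acpp, the prostatic acid phosphatase gene, and Pxylp1, a phosphatase gene of proteoglycan synthesis, had log2 fold changes of -0.81 and -0.97, near that of Acp4. Acp2, of lysosomes, had one of 0.79 (edgeR adjusted p 0.0965).

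The secretory pathway kinases form the family of FAM20A and FAM20C. Of 12 genes, 11 were below both controls and 1 was above both, with a median log2 fold change of -0.76. edgeR called 0 of the 12, and 5 reached an unadjusted p under 0.05, against 31.9% of all genes. DESeq2 called 3, Fam20c, Fam198b and Pkdcc, all lower, against 4.71% of all genes called as lower. Fam198b, a Golgi-associated kinase gene also known as Gask1b, was at 24.9 CPM in cKO, 90.0 CPM in HT and 111 CPM in Ctrl (log2 fold change -2.01, edgeR adjusted p 0.0271). Pkdcc, a secreted tyrosine kinase gene, was at 33.0, 95.3 and 103 CPM (log2 fold change -1.59, edgeR adjusted p 0.0341). Fam198a and 1190002N15Rik (Dipk2a) had log2 fold changes of -0.93 and -0.83. The log2 fold change of Fam20c was the third lowest in this list and that of Fam20a was the second highest.

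FAM83H shares its casein kinase 1 binding domain with the other FAM83 proteins. Of 14 genes of the FAM83 and casein kinase 1 families, 8 were above both controls in cKO, 5 were below both and 1 lay between, with a median log2 fold change of 0.13. edgeR and DESeq2 each called 0 of the 14, against 0.0749% and 10.6% of all genes. Before adjustment, 3 of the 14 had an edgeR p below 0.05, as did 31.9% of all genes. Fam83e had the largest difference, at 11.0 CPM in cKO, 4.47 CPM in HT and 0.777 CPM in Ctrl, and its controls lay 2.52 apart on the log2 scale. Fam83d, of the mitotic spindle, was at 6.11, 14.5 and 16.8 CPM. Csnk1e and Csnk1g1 had log2 fold changes of 0.95 and 0.91, with adjusted p-values of 0.0778 and 0.0848 in edgeR's test.

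**Figure D4:**
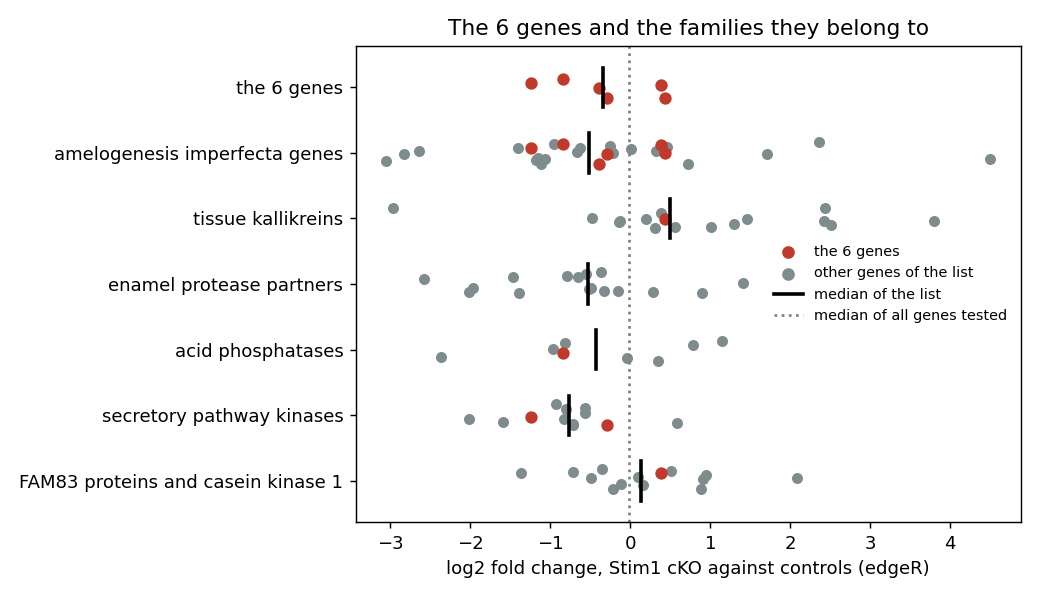
Log2 fold change of cKO against the grouped controls in edgeR (horizontal axis) for the tested genes of 7 lists, 1 point per gene with random vertical spread. Filled red points are the 6 genes, grey points the other genes, black bars the list medians and the dotted line the median of all genes tested. The list medians range from -0.76 for the secretory pathway kinases to 0.50 for the tissue kallikreins.

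**Figure D5:**
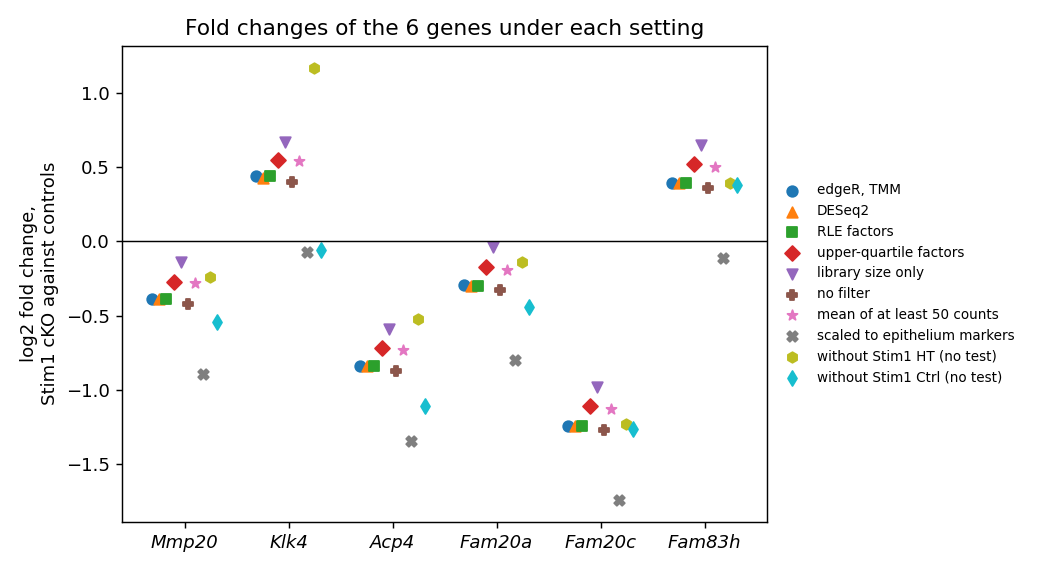
Log2 fold change of cKO against the controls (vertical axis) for the 6 genes under edgeR with TMM factors and 7 alternative settings. Also shown for each gene are 2 log2 ratios of cKO to 1 control library, with the other control left out. Fam20c stays between -1.74 and -0.98, while Klk4 and Fam83h fall just below 0 when counts are scaled to the epithelium markers, and Klk4 also without Ctrl.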

How the data were processed

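RNA of whole incisor enamel organs was sequenced in 3 libraries, 1 per genotype. The authors removed low-quality reads, aligned paired-end reads with STAR and deposited raw counts per gene symbol. The genome build, annotation, counting tool and strand setting are not given in the sources used here. The paper names a NEBNext directional kit and the labels a SMARTER kit. Each listed gene has at least 1 count in every library, so genes without a read in 1 library could not be examined. In 25 rows (0.154% of counts) symbols had become dates, and 2 symbols were repeated, and these rows were kept as separate genes.

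Stim1 cKO was tested against both controls with edgeR 4.0.16 in R 4.3.3 (TMM, filterByExpr, quasi-likelihood test, Benjamini-Hochberg adjustment). The common dispersion was 0.106, with 1 residual degree of freedom. DESeq2 1.42.0, other scalings, filters and a threshold of 0.05 were alternatives, and each control was left out in turn. Ratios of counts carry 95% Wilson intervals. Positions and exon lengths came from GENCODE M21 (20712 symbols matched), promoters from RefSeq.

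Named genes were the 6 members, Stim1, up to 4 genes per family list averaging 50 counts or more and with the largest absolute log2 fold change, the 2 nearest profiles per member on log2(CPM + 1), and marker genes. Ctsc, Mmp2, Sp6, Ltbp3 and 2410002F23Rik fall outside this rule and were named after their values were seen. Older symbols were matched for 8 genes of the lists. The members and lists were chosen with earlier results of these data known. The longest-transcript length was added after the values were seen.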

Additional observations from a re-analysis of the deposited data

How the results depend on the processing

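Each value rests on 1 library per genotype. Over the 7 alternative fits, the log2 fold changes ranged from -0.89 to -0.14 for Mmp20, -1.34 to -0.59 for Acp4, -0.80 to -0.04 for Fam20a and -1.74 to -0.98 for Fam20c, and only Fam20c was called, by DESeq2 (log2 fold change -1.24, adjusted p 0.00379). Scaling to the epithelium markers used their summed counts, most of which were of Krt5 and Krt14. It turned Klk4 to -0.07 and Fam83h to -0.11, with the median of all genes at -0.52. That median was 0.12 with upper-quartile factors and 0.25 with library size only. With 1 control left out, the value is a log2 ratio of cKO to the other control, with no model and no test. These ratios were -0.54 to -0.24 for Mmp20, -0.06 to 1.17 for Klk4, -1.11 to -0.52 for Acp4 and -0.44 to -0.14 for Fam20a. Between HT and Ctrl, library size scaling moved the log2 ratio of Mmp20 to 0.41 and of Fam20c to 0.14. No paired analysis was possible because each genotype has 1 library.

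The number of the 6 genes called was 1 with DESeq2 and 1 at an adjusted p under 0.05, against 0. Over all genes, 14 were called, all higher, against 1987 with DESeq2 (1107 higher and 880 lower), 1811 at an adjusted p under 0.05, 907 without a filter, 138 with upper-quartile factors, 50 with RLE factors, 8 when scaled to the epithelium markers, 6 with library size only and 6 when the filter kept means of 50 counts or more. DESeq2 called 7 genes of inherited enamel defects, 1 kallikrein, 5 protease partners, 1 acid phosphatase and 3 secretory pathway kinases. At an adjusted p under 0.05 these were 6, 1, 4, 1 and 3. Without a filter they were 1, 1, 0, 1 and 1, and 1 kallikrein was called with RLE and with upper-quartile factors. The cause of these shifts was not tested.

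Dividing by merged exon length changed the ratio of Klk4 to Mmp20 to 0.903 in cKO, 0.647 in HT and 0.341 in Ctrl. That of Mmp20 to Amelx became 0.0124, 0.00186 and 0.00212, and that of Fam20a to Fam20c 2.41, 1.36 and 1.13. The change was by 1 factor per pair of genes in all libraries. With the longest transcript, Fam20c was above Fam20a in HT and Ctrl.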
